A study of Mus musculus with 6 samples.

Results

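DPPA4 peaks were called at 14652 promoter regions in both GFP-negative mESCs and GFP-positive 2-cell-like cells (2CLCs). These were part of 97623 regions that held a peak in either state (15.01%). The regions were made by joining the peaks of both states on chromosomes 1 to 19 wherever they shared at least 1 bp. A region was kept when it held peaks of both states, was at most 4 kb wide and had its midpoint between 2.5 kb upstream and 0.5 kb downstream of an annotated transcription start site. They were thus chosen by the presence of called DPPA4 peaks in each list, so that presence is not a finding, and the peak heights given below describe them without a test.

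All 6 samples came from a BL6/129 hybrid mouse embryonic stem cell line in which EHMT2, a histone H3K9 methyltransferase, carried a dTAG degradation tag with mCherry, and in which GFP was driven by the MERVL retroviral promoter. All were exposed to dTAG for 72 h, so EHMT2 was depleted in every group, and no undepleted DPPA4 sample was analysed here. Live cells were sorted into a GFP-negative gate (mESCs) and a GFP-positive gate (2CLCs), and DPPA4 was mapped by CUT&RUN in 2 libraries of each. One IgG library of GFP-negative cells and one of unsorted cells were not analysed here. No control level thus stands beside any region below, CpG-rich promoters included, and bound means only that a peak was called. The reporter line was grown from single colonies on a fibroblast feeder layer, GFP reports on MERVL activity alone, and without RNA data the sorted cells could not be checked against marker expression. The 2 DPPA4 libraries of each state were pooled by the authors into 1 peak list, so no spread between replicates exists for any value below. Intervals in brackets are 95% intervals for counting error only, and they treat neighbouring regions as independent.

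DPPA4 and its partner DPPA2 are small DNA-binding proteins of pluripotent cells, oocytes and early embryos, and both are known as activators of genes transcribed at zygotic genome activation. In embryonic stem cells they are also known to occupy promoters rich in CpG dinucleotides, including those of developmental genes marked by both active and repressive histone methylation. CpG-rich promoters, or CpG islands, typically lack DNA methylation and serve most broadly expressed genes, whereas promoters with few CpGs serve mainly genes restricted to particular tissues.

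The sequences below show what such regions look like, and they were read from the mm10 chromosomes on the plus strand, with each CpG in capitals. Each is a stretch of 120 bp inside the region that avoids annotated exons. The first 3 are from regions among the strongest in both lists, at Gm15541 and Prx (chr7:27508129-27508248), Rab8a (chr8:72161000-72161119) and Smpd3 (chr8:106338061-106338180). Rlbp1 (chr7:79388139-79388258) and Sfi1 (chr11:3193089-3193208) are from regions that were relatively stronger in GFP-negative and in GFP-positive cells. For contrast, the last 2 are from promoter regions of one list alone, Grm4 (chr17:27505533-27505652) in GFP-negative cells and Rsph3a (chr17:7952341-7952460) in GFP-positive cells.
Gm15541: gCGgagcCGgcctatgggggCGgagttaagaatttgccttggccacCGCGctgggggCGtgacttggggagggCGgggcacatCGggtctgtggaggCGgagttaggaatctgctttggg
Rab8a: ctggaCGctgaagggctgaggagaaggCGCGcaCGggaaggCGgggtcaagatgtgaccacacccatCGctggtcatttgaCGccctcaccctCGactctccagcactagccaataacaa
Smpd3: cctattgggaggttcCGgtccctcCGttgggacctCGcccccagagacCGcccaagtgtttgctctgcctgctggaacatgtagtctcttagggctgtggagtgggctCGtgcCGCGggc
Rlbp1: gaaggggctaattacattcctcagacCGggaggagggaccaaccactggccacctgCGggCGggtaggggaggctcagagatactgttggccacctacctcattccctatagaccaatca
Sfi1: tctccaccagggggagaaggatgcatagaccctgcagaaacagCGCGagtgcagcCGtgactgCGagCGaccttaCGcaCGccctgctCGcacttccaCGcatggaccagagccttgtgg
Grm4: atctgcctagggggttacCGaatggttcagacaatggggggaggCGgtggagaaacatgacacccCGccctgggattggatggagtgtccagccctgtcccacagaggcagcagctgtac
Rsph3a: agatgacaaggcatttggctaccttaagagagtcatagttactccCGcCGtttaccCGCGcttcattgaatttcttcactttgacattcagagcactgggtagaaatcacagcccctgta

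These stretches held 9 CpGs at Gm15541, 8 at Rab8a and 7 at Smpd3, against 3 at Rlbp1, 9 at Sfi1, 3 at Grm4 and 4 at Rsph3a. Single stretches stand only for themselves, and the share of CpG-rich sequence over all regions is given below. Fold enrichment, as the peak caller of the authors gives it, compares fragment density at the summit of a peak with the local background in the same list, and it is given below with the GFP-negative value before the GFP-positive one. It was 52.1 and 31.8 at Gm15541. Grm4 had 21.6 in GFP-negative cells, and Rsph3a had 18.97 in GFP-positive cells.

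Of the 33751 regions that held peaks of both lists, 647 were wider than 4 kb, and 380 of those had their midpoint in a promoter window. Among the 33104 narrower ones, the promoter regions made up 44.3% (43.7 to 44.8). Most of them were simple pairs of peaks. In 13214 regions (90.2%) there was exactly 1 peak of each list, and in 11689 (79.8%) the closest summits of both lists lay within 200 bp, with a median gap of 55 bp. Median width was 1475 bp (quartiles 1042 and 2031 bp), and the narrowest region spanned 154 bp. By comparison, 9219 promoter regions of the GFP-negative list alone had a median width of 532 bp, and 3132 of the GFP-positive list alone had a median of 555 bp.

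The shared promoter regions spanned a wide range of peak strength. Median fold enrichment was 7.97 (quartiles 5.19 and 12.6) in GFP-negative and 5.60 (quartiles 3.99 and 8.32) in GFP-positive cells. It was 3.75 in regions of the GFP-negative list alone and 3.50 in those of the GFP-positive list alone. A region had to pass the peak caller in both lists to be counted as shared, so strength and class are not independent. The −log10 q-value, the authors' adjusted significance of the peak, was at least 5 in both lists in 8531 regions (58.2%) and under 5 in both in 2388 (16.3%).

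The shared regions sat close to start sites. Their midpoints lay a median of 161 bp from the nearest start site, compared with 420 bp in GFP-negative-only and 853 bp in GFP-positive-only promoter regions. The nearest start site was taken only among those whose window held the midpoint. A closer start was thus left out where the midpoint lay more than 0.5 kb downstream of it, which can lengthen distances over 500 bp and raise the upstream shares. Within 200 bp of a start site lay 8336 shared regions (56.9%), 33.0% of the GFP-negative-only regions and 19.4% of the GFP-positive-only regions. The difference was 23.9 percentage points (22.7 to 25.2) from the former and 37.4 (35.8 to 39.0) from the latter. Only 1640 shared regions (11.2%) were centred more than 1 kb upstream, against 34.3% and 45.8%. The midpoint was downstream of the nearest start site in 6962 shared regions (47.5%), so midpoints fell on both sides of it in similar numbers. Whether each region spanned its start was not computed.

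**Figure D1:**
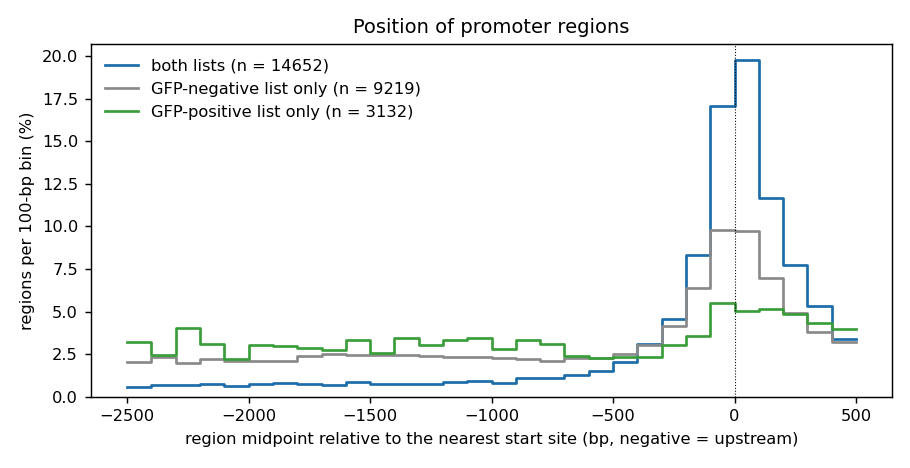
Distance of the midpoint of each promoter region from the nearest start site in bp (x axis, negative is upstream) and percent of the regions of its class in each bin of 100 bp (y axis), for regions bound in both states (blue, n = 14652), in the GFP-negative list alone (grey, n = 9219) and in the GFP-positive list alone (green, n = 3132). The blue line peaks at the start site, where 36.9% of the shared regions lie within 100 bp, and the other lines are lower there and higher upstream. Only start sites whose window holds the midpoint are considered.

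Many of the shared regions were CpG-rich, and the rule that chose them used no sequence. A region was called CpG-rich when the 500 bp around its midpoint had a GC content of at least 55% and an observed-to-expected CpG ratio of at least 0.65. By this measure 7501 of the 14652 regions (51.2%, 50.4 to 52.0) were CpG-rich. The share was 9.97% (9.37 to 10.6) in GFP-negative-only regions and 3.16% (2.60 to 3.83) in GFP-positive-only regions. For reference, 28.2% of all 125891 annotated start sites and 36.5% of the 90262 start sites of protein-coding genes were CpG-rich. The shared share exceeded that of GFP-negative-only regions by 41.2 percentage points (40.2 to 42.2) and that of GFP-positive-only regions by 48.0 (46.98 to 49.0).

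The CpG-rich share moved with position and with peak strength. Among shared regions within 200 bp of a start site it was 67.1% (66.1 to 68.1), and among those more than 1 kb upstream it was 6.95% (5.82 to 8.29). Ranked by −log10 q in the GFP-negative list, the weakest of 10 equal bins of shared regions was CpG-rich in 14.6% and the strongest in 69.0%. The same ranking in the GFP-positive list gave 21.8% in the weakest bin and 71.4% in the strongest. The classes also differed where their −log10 q overlapped. Shared regions with a GFP-negative −log10 q between 5.07 and 7.52 were CpG-rich in 41.7%, while GFP-negative-only regions between 5.67 and 8.56 were so in 18.98%. Shared regions with a GFP-positive −log10 q between 2.66 and 3.76 were CpG-rich in 32.8%, while GFP-positive-only regions between 2.66 and 3.25 were so in 5.43%. When only the 10000 strongest peaks of each list were used, 70.2% of the shared promoter regions were CpG-rich and the difference shrank to 19.6 percentage points from GFP-negative-only regions and to 7.36 from GFP-positive-only regions. In that setting each list was cut before merging, so a region whose peak in the other list was cut counted as a one-list region. Its one-list classes therefore differ from those above, and the smaller differences do not show that strong one-list regions are CpG-rich.

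**Figure D2:**
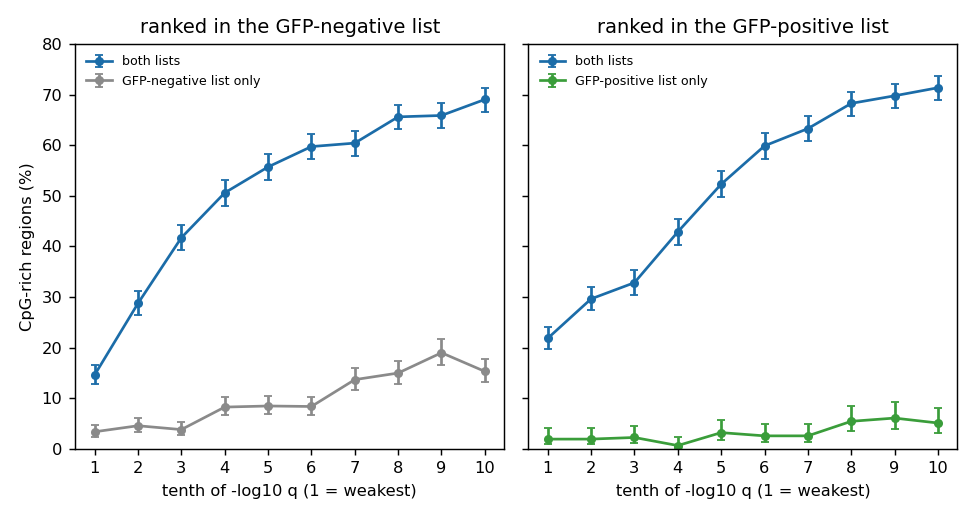
Percent of CpG-rich regions (y axis) in 10 equal bins of the −log10 q-value of the GFP-negative list (left) and of the GFP-positive list (right), from the weakest bin (1) to the strongest (10), with 95% Wilson intervals. Blue points are promoter regions bound in both states and grey or green points are promoter regions of that list alone, ranked among themselves. The blue points climb to 69.0% on the left and 71.4% on the right, and the others stay under 20%.

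Short motifs of promoter-binding factors were counted in the 300 bp around each midpoint, on both strands, and a stretch could count for several motifs. The SP and KLF motif GGGCGGGG was in 19.8% of shared regions, 8.08% of GFP-negative-only regions, 2.39% of GFP-positive-only regions and 13.6% of all start sites. The ETS motif CCGGAAG was in 10.6% of shared regions, 3.87% and 2.59% of the others, and 8.16% of all start sites. Both motifs hold a CpG, and among CpG-rich sequences alone the order against start sites turned around. There, GGGCGGGG was in 28.9% of shared regions and 35.7% of all CpG-rich start sites, and CCGGAAG in 14.4% and 19.8%. For start sites the 300 bp were centred on the start itself, while midpoints of shared regions lay a median of 161 bp from one. Shares of regions and of start sites are thus not taken at like positions. The NFY motif CCAATC was in 13.5% of shared regions, 10.2% of GFP-negative-only regions, 11.4% of GFP-positive-only regions and 12.6% of start sites, so it barely separated the classes. Within the shared regions, CCAATC went from 11.3% in the weakest bin of the GFP-negative list to 21.0% in the strongest, and GGGCGGGG from 7.09% to 33.7%. TATAAA, the TATA box of regulated promoters, was in 4.44% of shared regions, 8.07% of GFP-negative-only regions, 11.6% of GFP-positive-only regions and 11.7% of all start sites. Among CpG-rich sequences alone it was in 1.83% of shared regions and 2.63% of start sites. A match is only a match of letters and does not show that the factor binds.

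Most of the shared regions lay at protein-coding genes. In 12890 regions (88.0%, 87.4 to 88.5) at least one of the genes whose window held the midpoint was protein-coding, against 73.3% of GFP-negative-only and 66.9% of GFP-positive-only promoter regions. A single gene was served by 11416 regions (77.9%), 2 genes by 2947 (20.1%) and 3 or more by 289 (1.97%). Counted by gene, 11802 of 20807 protein-coding genes had a shared promoter region (56.7% of the protein-coding genes). A further 2326 had only a GFP-negative region, 409 only a GFP-positive region and 6270 neither, of which some lie under the wide regions that were left out. Protein-coding genes with a CpG-rich start site had a shared region in 9463 of 11000 cases (86.0%), and those without one in 2339 of 9807 cases (23.9%).

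Long non-coding genes followed the same division at a lower level. Of 9426 such genes, 1975 had a shared promoter region (21.0%). With a CpG-rich start site it was 973 of 1234 (78.8%), and without one 1002 of 8192 (12.2%). Of the 1975, 1178 (59.6%) used a region that also served a protein-coding gene. Non-coding genes annotated as starting from a bidirectional promoter had a shared region in 144 of 190 cases (75.8%), antisense genes in 769 of 2913 (26.4%) and lincRNA genes in 705 of 5209 (13.5%). Of those 144 bidirectional genes, 133 shared the region with a coding gene. The 15 small nucleolar RNA host genes of the Snhg group, which carry growth-related small RNAs in their introns, had a shared region in 13 cases, with Snhg11 and Snhg14 as the exceptions. Snhg10 was the strongest of them, with fold enrichments of 27.5 and 16.9.

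**Figure D3:**
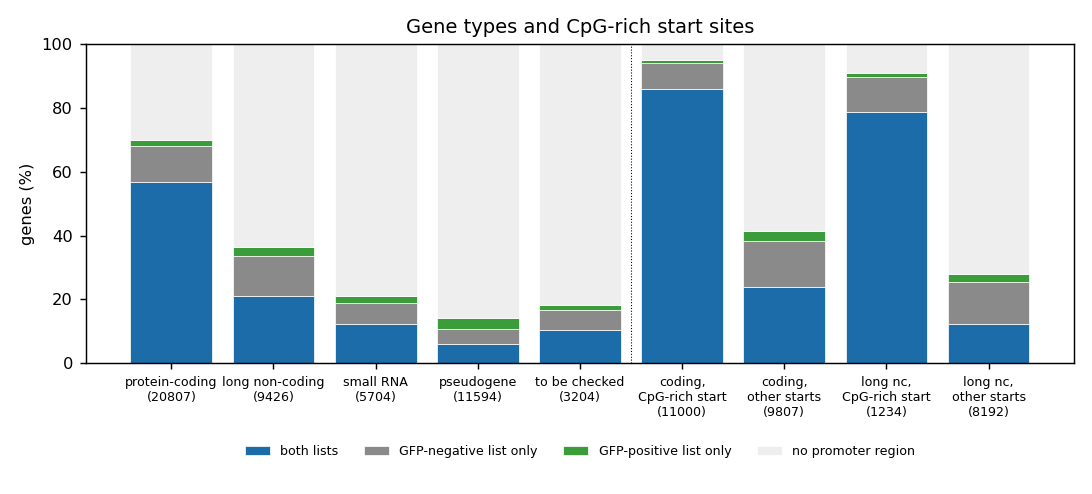
Percent of genes (y axis) of each annotated type with a promoter region in both lists (blue), in the GFP-negative list alone (grey), in the GFP-positive list alone (green) or in neither (pale), with the number of genes in brackets under each bar. To the right of the dotted line, protein-coding and long non-coding genes are divided by whether any start site is CpG-rich. Blue makes up 86.0% and 78.8% of the CpG-rich groups and 23.9% and 12.2% of the rest.

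Small RNA genes, pseudogenes and immune receptor segments had few shared regions. Of 5704 small RNA genes 706 had one (12.4%), of 11594 pseudogenes 690 (5.95%) and of 494 immunoglobulin and T-cell receptor segments 4 (0.810%). Among small RNAs, 351 of 2054 miRNA genes (17.1%) and 165 of 1442 snoRNA genes (11.4%) were included, and 193 of the 351 and 106 of the 165 used a region that also served a protein-coding gene. Regions with no protein-coding gene, 1762 in all, were CpG-rich in 20.3% (18.4 to 22.2), against 55.4% (54.6 to 56.3) of those with one.

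One shared region lay over the upstream part of the miR-290 cluster, which encodes the most abundant miRNAs of mouse embryonic stem cells and was singled out after its values were seen. It spanned chr7:3217453-3219704 and its midpoint lay in the windows of 8 miRNA genes (Mir290a, Mir290b, Mir291a, Mir291b, Mir292, Mir293, Mir294 and Mir295), and 48 bp upstream of Mir290a. Its fold enrichment was 4.08 and 5.90, with −log10 q of 2.67 and 6.63, so it was among the weaker regions in the GFP-negative list. Annotated miRNA starts are hairpin ends rather than transcript starts, so the region cannot be assigned to one hairpin, and Mir293, Mir294 and Mir295 lie beyond its end. RefSeq held a sequence for 225 of the 351 miRNA genes. The 8 mature miRNAs shown are those that share their seed with another sequence held for these 8 genes, to give seeds that recur in the cluster. That set lacked a 3p sequence of Mir292 and the sequences of Mir292b, so further shared seeds may be missing. The seed, bases 2 to 8, is in capitals, and 3 of the 8 carry the seed AAGUGCU that is typical of this family.
mmu-miR-291a-3p: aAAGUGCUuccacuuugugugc
mmu-miR-294-3p: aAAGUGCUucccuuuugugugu
mmu-miR-295-3p: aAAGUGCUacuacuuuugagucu
mmu-miR-290a-5p: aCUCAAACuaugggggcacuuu
mmu-miR-292a-5p: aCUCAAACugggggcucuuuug
mmu-miR-293-5p: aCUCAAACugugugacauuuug
mmu-miR-291a-5p: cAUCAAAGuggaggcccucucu
mmu-miR-291b-5p: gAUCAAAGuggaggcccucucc

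Functions were described with 50 gene lists, each read against the 56.7% of all protein-coding genes. In 34 lists the share with a shared promoter region was above that level and in 16 below it. The lists that stood highest were those of machinery that every dividing cell uses, and chromatin regulators. With the 10000 strongest peaks alone some of these came close to the protein-coding level, with 22.4% of proteasome subunits against 21.1%. The lists that stood lowest were those of sensory and immune receptors, defensins, 2-cell-stage genes, serpins and keratins. Because most genes of the first kind have CpG-rich starts, the machinery, chromatin and developmental lists are also set beside the 86.0% of genes with CpG-rich start sites. Tissue-restricted lists with few such starts are set beside the 23.9% of genes without one.

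**Figure D4:**
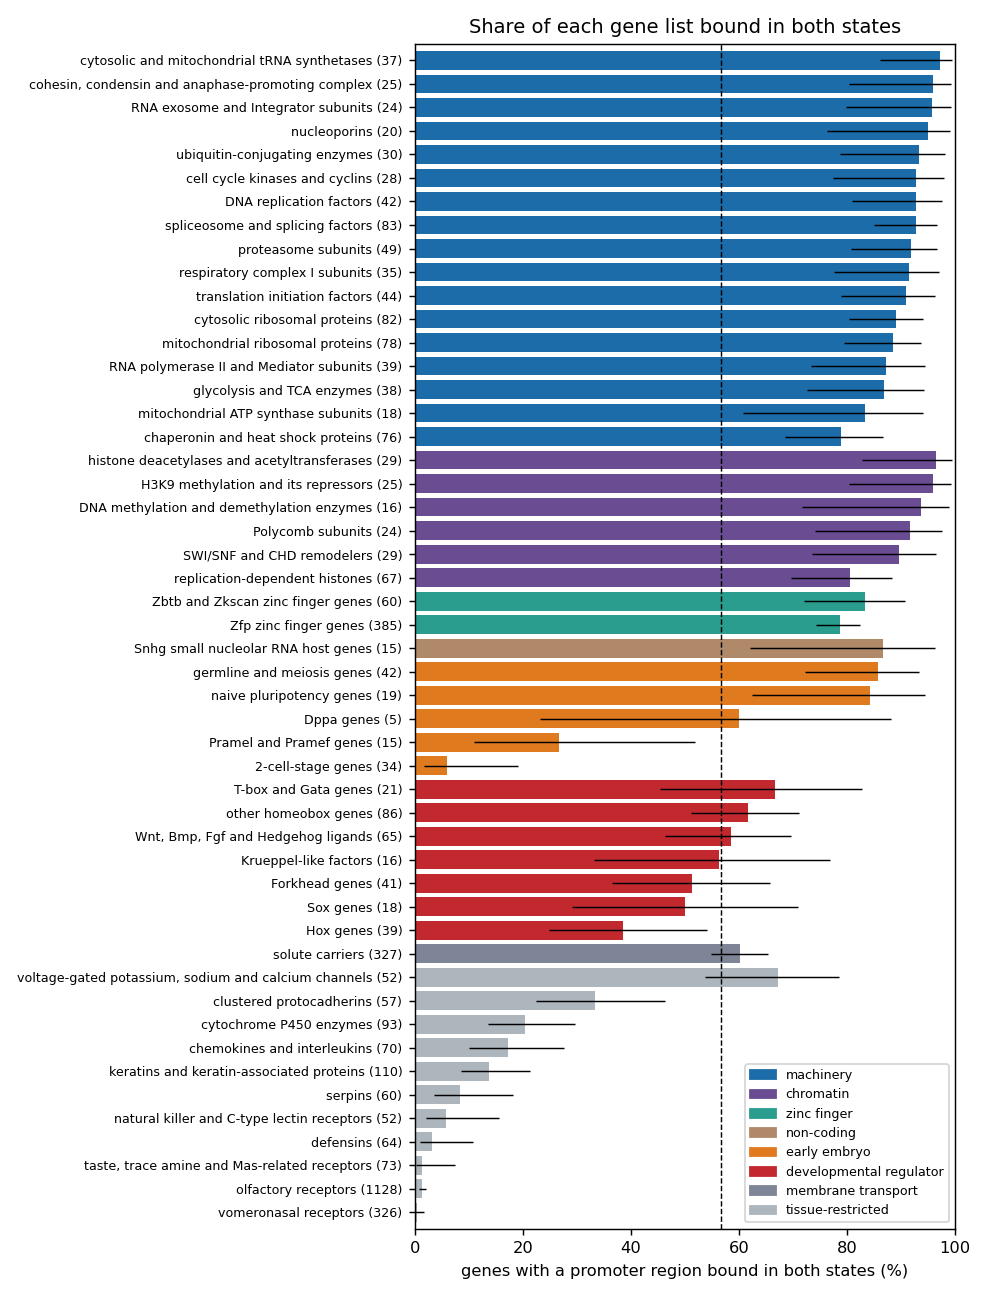
Percent of the genes of each list with a promoter region bound in both states (x axis), with the number of genes in brackets, 95% Wilson intervals as lines and colours for the broad role of the list. The dashed line is the 56.7% of all protein-coding genes. Lists of cell machinery and chromatin regulators lie between 78.9% and 97.3%, and vomeronasal, olfactory and taste receptors lie under 2%.

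Genes of gene expression machinery were bound in both states in nearly every case. Aminoacyl-tRNA synthetases, which load tRNAs, had a shared region in 36 of 37 genes (97.3%), RNA exosome and Integrator subunits, which process RNA, in 23 of 24, and splicing factors in 77 of 83 (92.8%). RNA polymerase II and Mediator subunits followed with 34 of 39, translation initiation factors with 40 of 44, cytosolic ribosomal proteins with 73 of 82 (89.0%) and mitochondrial ribosomal proteins with 69 of 78 (88.5%). The strongest region of the splicing list was at Hnrnpr (chr4:136309612-136311910), with fold enrichments of 32.01 in GFP-negative and 16.0 in GFP-positive cells. Prpf8, the core protein of the spliceosome, had 31.3 and 13.5. Among ribosomal proteins Rpl37 was strongest, with 25.8 and 16.0. The exceptions were few, and Rars2, an arginyl-tRNA synthetase of mitochondria, and Polr2k, a polymerase subunit, had no promoter region in either list, while Sf3b1, another spliceosome subunit, lay under a region wider than 4 kb. When only genes with CpG-rich starts were counted, these 7 lists ran from 90.6% to 97.1%.

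Machinery of the cell cycle, energy metabolism and protein turnover stood at a similar level. DNA replication factors had a shared region in 39 of 42 genes, cohesin, condensin and anaphase-promoting complex subunits in 24 of 25, nucleoporins in 19 of 20 and cell cycle kinases and cyclins in 26 of 28. Proteasome subunits had one in 45 of 49 genes, and 2 genes without one, Psmb11 and Psme2b, were absent from both lists. Psmb11 encodes the proteasome subunit of thymus epithelium. Respiratory complex I subunits had one in 32 of 35 genes and glycolysis and TCA cycle enzymes in 33 of 38. Genes of the latter list without a region of at most 4 kb included Pgam2 and Eno3, the muscle forms of their enzymes, of which Eno3 lay under a wider region, while Eno1, the broadly expressed enolase, had fold enrichments of 24.1 and 14.3. Citrate synthase, Cs, had 25.6 and 17.9. Chaperonin and heat shock proteins, with 60 of 76 genes (78.9%), were the lowest of the machinery lists. Between 76.3% and 100% of the genes of these 8 lists had a CpG-rich start, and among such genes the shares ran from 87.3% for chaperonin and heat shock proteins to 100% for nucleoporins and for cell cycle kinases and cyclins, near or above the 86.0% of all such genes.

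Chromatin regulators, including those that act on the 2-cell-like state, were almost all bound in both states, and most of them have CpG-rich starts. Among genes with such starts, the shares of the H3K9, Polycomb, DNA methylation, acetylation and remodeler lists ran from 88.9% for SWI/SNF and CHD remodelers to 96.4% for histone deacetylases and acetyltransferases, not far above the 86.0% of all such genes. Of 25 genes for H3K9 methylation and its repressors 24 had a shared region (96.0%), the exception being Setdb1, a H3K9 methyltransferase, which had a region in neither list. Ehmt2, whose protein was depleted here, had fold enrichments of 6.79 and 9.27, and its partner Ehmt1 had 16.7 and 10.1. Trim28, the corepressor of KRAB zinc finger proteins, was among the weakest of the list, with 3.31 and 3.51, and it also had a start site under a region wider than 4 kb. The strongest was Kdm4b, a H3K9 demethylase, with 35.4 and 22.2. Ranked among all shared regions by fold enrichment, the genes of this list had a median difference of -11.9 percentiles (GFP-negative minus GFP-positive), and the widest gap was at Cbx3, a heterochromatin protein, with fold enrichments of 7.27 in GFP-negative and 11.7 in GFP-positive cells. The corresponding median was -0.034 percentiles over all protein-coding genes, but it was of similar size in lists of other roles, with -13.3 for replication-dependent histones, -11.8 for mitochondrial ATP synthase subunits, -11.1 for germline genes and -10.1 for cytosolic ribosomal proteins.

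Polycomb, DNA methylation and acetylation genes showed the same near-complete coverage. Polycomb subunits had a shared region in 22 of 24 genes, with Ring1 absent from both lists and Cbx6 in the GFP-negative list alone. The strongest Polycomb region was at Phf19, with fold enrichments of 30.7 and 18.7. Enzymes and readers of DNA methylation had one in 15 of 16 genes, Tdg being in the GFP-negative list alone. Mbd4, a thymine glycosylase, was strongest with 39.99 and 25.9. Dnmt1, the maintenance methyltransferase, had 13.1 and 10.1, and Tet3, a demethylation enzyme of the zygote, had 9.51 in the GFP-negative list but 3.42 in the GFP-positive list. Histone deacetylases and acetyltransferases had one in 28 of 29 genes, and SWI/SNF and CHD remodelers in 26 of 29. Replication-dependent histone genes, which lie in tight clusters, had one in 54 of 67 genes (80.6%), but those 54 genes rested on 33 regions. With unique sequence alone the share was 44.8%, below the 55.2% of all protein-coding genes in that setting, and with the nearest start site alone it was 41.8%, below 49.8%. One such region was chr13:21831475-21835241 at Hist1h2ap, Hist1h2br and Hist1h4n.

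Genes of the pluripotent state were bound in both states at 16 of 19 naive pluripotency genes (84.2%, 62.4 to 94.5), and the others, Klf2, Prdm14 and Utf1, had a region in the GFP-negative list alone. Klf5, a transcription factor of naive cells, had the strongest region, with fold enrichments of 26.7 and 13.3. Sall4 followed with 22.5 and 12.03. Tdgf1, a Nodal co-receptor, had 18.9 in GFP-negative and 4.92 in GFP-positive cells, and Zfp42, known as Rex1, had 19.4 and 6.34. Nanog had 10.95 and 5.22 and Pou5f1 had 7.11 and 5.13, with regions centred at -637 bp and -1191 bp from their start sites, where negative is upstream. Klf4 went the other way, with 6.66 and 8.90, and Esrrb was the weakest in the GFP-positive list with 3.96 and 3.21. Over the 16 genes, median fold enrichment was 11.4 and 5.22, set beside 9.51 and 6.62 over all protein-coding genes with a shared region.

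Of the Dppa genes, Dppa2, the partner of DPPA4, had a shared region with fold enrichments of 6.18 and 7.15. Dppa3, a maternal factor, had 3.55 and 4.04, and Dppa5a had 5.28 and 4.79. Dppa4 itself had a promoter region in the GFP-positive list alone, and Dppa1 had none. Germline and meiosis genes had a shared region in 36 of 42 cases (85.7%, 72.2 to 93.3), and their median fold enrichment was 6.79 in GFP-negative and 6.32 in GFP-positive cells. Prdm9, the methyltransferase that places meiotic recombination, was the strongest, with 19.4 and 17.9. Dazl, a germ-cell RNA-binding protein, had 13.1 and 10.4. Sycp3, Sohlh1 and Tex101 had a region in the GFP-positive list alone, and Stra8, Smc1b and Piwil4 in the GFP-negative list alone.

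Genes of the 2-cell stage were nearly absent from the shared regions. Of 34 genes 2 had one (5.88%, 1.63 to 19.1), while 19 had a promoter region in the GFP-positive list alone, none in the GFP-negative list alone, and 13 in neither. The 2 genes were Duxf3, which encodes the transcription factor DUX that starts the 2-cell program, and Zfp750. Duxf3 had fold enrichments of 11.2 and 21.7 at a copy number of 2, and Zfp750 had 4.41 and 4.03. Genes bound in the GFP-positive list alone included Obox5, Obox6, Tcstv1, Tcstv3, Tdpoz1 and Usp17la, and genes with no promoter region included Zfp352 and Zscan4c. Many of the 34 genes, though not all, lie in families of near-identical copies, over which reads were placed at random. Of the 34, 1 had a CpG-rich start site. The Pramel and Pramef family of preimplantation genes had a shared region in 4 of 15 cases, among them Pramel1 with 4.27 and 8.51.

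Most lists of transcription factors and signals of development stood close to the protein-coding level or below it, and T-box and Gata genes stood higher. CpG-rich starts ranged from 48.7% of the Hox genes to 87.5% of the Krueppel-like factors. Hox genes, which set position along the body axis, had a shared region in 15 of 39 cases (38.5%, 24.9 to 54.1), and 14 more had a region in the GFP-negative list alone. Sox genes had one in 9 of 18, Forkhead genes in 21 of 41 (51.2%), Krueppel-like factors in 9 of 16 and other homeobox genes in 53 of 86 (61.6%). Among genes with a CpG-rich start site the share was 47.4% for Hox, 46.7% for Sox, 57.1% for Krueppel-like, 58.1% for Forkhead and 68.3% for other homeobox genes, all below the 86.0% of such genes. Klf10, Klf13 and Klf16 as well as Sox10 and Sox12 lay under regions wider than 4 kb, and when the width limit was dropped the Forkhead, Sox and Krueppel-like lists moved above the protein-coding level while the Hox list stayed below.

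Developmental genes with a shared region spanned a wide range of heights. Median fold enrichment of the Hox genes was 5.19 in GFP-negative and 4.75 in GFP-positive cells, and Hoxc13 was the strongest with 8.07 and 6.25. Klf3, a transcriptional repressor, had 32.4 and 15.01. Foxo6 had 25.9 and 13.1, and Sox30, a factor of spermatid development, had 14.8 and 17.2. T-box and Gata genes had a shared region in 14 of 21 cases and Wnt, Bmp, Fgf and Hedgehog ligands in 38 of 65 (58.5%). Gdf9, an oocyte growth factor, was the strongest ligand gene, with 31.2 and 21.7.

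Zinc finger genes named Zfp had a shared region in 303 of 385 cases (78.7%, 74.3 to 82.5), and the Zbtb and Zkscan genes in 50 of 60 (83.3%). Zfp574 was the strongest of the former, with fold enrichments of 38.6 and 19.5. Zbtb5 had 39.7 and 20.5. Of the Zfp genes 56.6% had a CpG-rich start, near the 52.9% of all protein-coding genes, and 89.0% of those with such a start had a shared region.

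Tissue-restricted families made up few of the shared regions. Olfactory receptors had one in 14 of 1128 genes (1.24%), vomeronasal receptors in 1 of 326 and taste, trace amine and Mas-related receptors in 1 of 73. Only 2 of the 14 olfactory receptor regions were centred within 200 bp of the start site and 8 lay more than 1 kb upstream. The strongest was at Olfr773, at -2366 bp from the start, with fold enrichments of 21.7 in GFP-negative and 15.2 in GFP-positive cells. Defensins had a shared region in 2 of 64 genes, C-type lectin and natural killer receptors in 3 of 52, serpins in 5 of 60, keratins in 15 of 110, chemokines and interleukins in 12 of 70 and cytochrome P450 enzymes in 19 of 93. Few genes of these lists had a CpG-rich start, with 8.60% of the P450 and 8.57% of the chemokine and interleukin genes. Coding genes without such a start had a shared region in 23.9%. Near that level were the P450 enzymes (20.4%, 13.5 to 29.7) and the chemokines and interleukins (17.1%, 10.1 to 27.6). The other lists named so far stood below it. Some single genes in these families were among the stronger regions. Serpini1, a neuronal serpin, had 21.9 and 17.0, and Cyp46a1, a brain cholesterol hydroxylase, had 26.4 and 16.4. Their regions were centred at -590 bp and -555 bp from the start. Clustered protocadherins had a shared region in 19 of 57 genes (33.3%, 22.5 to 46.3), above the 23.9%, with a CpG-rich start in 7.02%. Voltage-gated potassium, sodium and calcium channels, a neuronal and muscle family, went against the others with 35 of 52 (67.3%), and 35 of these 52 genes had a CpG-rich start. Solute carriers, which range from housekeeping to tissue-specific transporters, stood at 197 of 327 (60.2%).

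The height of the shared regions went together in both lists. Across the 14652 regions the fold enrichments had a Spearman correlation of 0.746 and a Pearson correlation of 0.774 on the log2 scale. Regions are not replicates and each was required to have a peak in both lists, so these values only describe them. Fold enrichment was higher in the GFP-negative list in 11865 regions (81.0%), with a median ratio of 1.39. The scale of fold enrichment depends on the depth and background of each list, so the excess cannot be told apart from a difference between libraries, and regions are compared below by their percentile among the shared regions.

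The strongest regions in both lists, among those of unique sequence, were at Gm15541 and Prx, which encodes periaxin of myelin sheaths, Rab8a, a GTPase of membrane traffic, Rxylt1, a glycosyltransferase gene, Fkbp2, Smpd3, a sphingomyelinase, Pnkd with Aamp, Tspan17 and Zswim4. They had fold enrichments of 32.1 to 54.0 in the GFP-negative list and 21.97 to 31.8 in the GFP-positive list. All 8 were centred within 500 bp of a start site, and 3 of them were CpG-rich at the midpoint. Tspan17 had the highest of the 8 in the GFP-negative list (chr13:54788551-54790514).

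**Figure D5:**
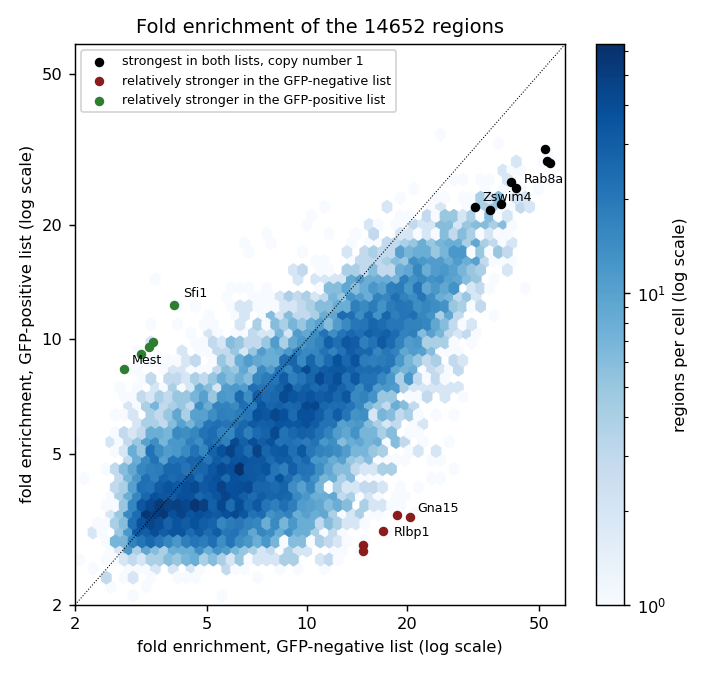
Fold enrichment of the 14652 promoter regions in the GFP-negative list (x axis) and in the GFP-positive list (y axis), both on log scales, with colour for the number of regions in each cell and the dotted line where both are equal. Black points are the 8 strongest regions of unique sequence, red points the 5 that ranked relatively higher in the GFP-negative list and green points the 5 that ranked relatively higher in the GFP-positive list. Most of the cloud lies below the line, and 81.0% of the regions were higher in the GFP-negative list.

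The regions that departed furthest from the common ranking were chosen for it, so their values are a description. The regions that ranked highest in the GFP-negative relative to the GFP-positive list were at Rlbp1, a retinal binding protein, Pqlc3, Gna15, a G protein of blood cells, Gm47561 and Hes3, a Notch-pathway repressor. Rlbp1 went from 16.9 in the GFP-negative list to 3.13 in the GFP-positive list, and Gna15 from 20.5 to 3.402. In the GFP-positive list their −log10 q was between 1.43 and 3.50, close to the cutoff of the list. On the other side stood Sfi1, a centrosome protein, Cetn3, a centrin, Gm45669 with Rcn3, Ism1 and Mest, an imprinted gene. Mest had 2.81 and 8.34. Sfi1 had 3.97 and 12.3, with −log10 q of 41.9 and 367.0. These −log10 q were far above the medians of 13.9 and 7.09 over the shared regions, although 3.97 was below the GFP-negative median fold of 7.97. The reason was not tested.

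Regions that served a pair of divergent genes, whose starts face away from each other within 1 kb, numbered 2008 (13.7%, 13.2 to 14.3). The share was 2.68% in GFP-negative-only and 1.56% in GFP-positive-only promoter regions. Divergent regions were CpG-rich in 73.6% (71.6 to 75.5) and the other shared regions in 47.6% (46.8 to 48.5). Their median fold enrichment was 10.2 and 7.43. Counted by gene, 2106 of 2350 protein-coding genes in head-to-head pairs (89.6%) had a shared region, against 9696 of 18457 others (52.5%). Among genes with CpG-rich starts the shares lay closer, at 93.2% (92.0 to 94.2) and 84.5% (83.7 to 85.2). An example is the region chr17:12915707-12917209, which served both Mrpl18, a mitochondrial ribosomal protein, and Tcp1, a chaperonin subunit, with fold enrichments of 25.9 in GFP-negative and 16.2 in GFP-positive cells.

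Multi-copy sequence was a small part of the shared regions. The copy number of a region was the median number of times that the 31-base words of the 200 bp around its midpoint occur in the genome, and 10 or more was called multi-copy. This held for 337 regions (2.30%, 2.07 to 2.56), for 1.43% of GFP-negative-only and for 9.61% of GFP-positive-only promoter regions. The difference of the shared share from the GFP-positive-only share was -7.31 percentage points (-8.42 to -6.29), and from the GFP-negative-only share 0.868 (0.518 to 1.21). Of the 337, 183 lay wholly in soft-masked repeat sequence, 71 were within 200 bp of a start site and 135 had a protein-coding gene. Their median fold enrichment was 6.46 and 5.63, and the median difference in percentile (GFP-negative minus GFP-positive) was -9.89. The strongest by significance were at Sspn, Sh2d3c, Reg2, Wdr46-ps and Gm17132. Reg2 had a copy number of 3001.5, with 32.9 and 20.1. Reads of such copies were placed at random, so a peak there does not show that this copy was occupied. With the IgG libraries not analysed, it does not show that another copy was occupied either.

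The limits of the rule cut through a continuous range. Just inside the width limit, Lrrc4, with a region of 4000 bp, had fold enrichments of 5.52 in GFP-negative and 6.22 in GFP-positive cells. Just outside, Mycn, with 4001 bp, had 7.94 and 7.51. At the downstream end of the window, Fgfbp3 at 500 bp had 7.40 and 7.68 and was included, while Itgb5 at 501 bp had 6.63 and 3.72 and was not.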

How the data were processed

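DPPA4 CUT&RUN peaks of GFP-negative and GFP-positive EHMT2-dTAG MERVL-GFP mESCs were analysed from 2 deposited peak lists, each pooled over 2 libraries. As the methods of the study state, the authors trimmed reads, aligned them in a mode that places multimapping reads at one position, removed duplicates and blacklisted sequence, and called peaks on whole fragments. The submitters' processing notes name STAR 2.7.10, Picard 2.26.0, SAMtools 1.14, bedtools 2.30.0, MACS2 2.2.6 and mm10. Whether IgG served as the control was not given in the sources used here. The number of cells per sample differs between the labels and the methods, and the number of reads kept is unknown, so a deeper library may give more peaks.

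In the deposited lists the fold ratio is the enrichment at the summit over background, −log10 q is its adjusted significance, the score is a whole-number form of −log10 p, and the summit offset is in bp. The scores, and a column of −log10 p, were not used. Both lists were scaled separately, so heights set across them depend on each list's depth and background, and percentiles within a list were used beside them.

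Peaks on chromosomes 1 to 19 were merged by 1 bp overlap and assigned to start sites of GENCODE vM21 with Python 3.11.15, numpy 2.4.6, pandas 2.3.3, scipy 1.17.1 and numba 0.67.0. Sequence came from the RefSeq copy of GRCm38, which carries the mm10 chromosomes. A gene was bound in both states when a shared region lay in the window of any of its start sites, including regions that belong to a neighbour, and its values are those of its strongest such region. Shares carry Wilson and differences Newcombe 95% intervals, for counting error only. No p-value was computed. The code was tested on simulated data.

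The regions and gene lists were chosen with earlier results of these data known. Genes were named by rule. Overall these were the 8 regions of copy number 1 and 5 multi-copy regions with the best lower rank of −log10 q, and the 5 regions on each side with the largest difference in percentile. In each list these were the genes of the 3 best regions, up to 3 genes without a region where most had one, the genes that the study treats as markers or repressors of the 2-cell state, and regions at the limits of the rule. Other genes, and the miR-290 cluster, were named after their values were seen. A few genes that the rule names are not reported here. No gene on chromosome 18 has its sequence shown. Alternatives were a stricter −log10 q, the strongest peaks alone, close summits, other windows, no width limit, unique sequence and the basic annotation, and, added after the data were seen, the nearest start site.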

Additional observations from a re-analysis of the deposited data

Results flagged for a closer look

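Chromosomes X and Y lay outside the comparisons, which were limited to chromosomes 1 to 19. By the same limits on width and position, 301 promoter regions held peaks of both lists there, 299 on X and 2 on Y. Chromosome X had 169 promoter regions in the GFP-negative list alone and 51 in the GFP-positive list alone, and Y had 3 in the GFP-positive list alone. These regions were noted because they carry signal in data that no comparison used. The IgG libraries were not analysed here, so no level in control samples stands beside them.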

How the results depend on the processing

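No paired analysis was possible because the authors merged both libraries of a state before peaks were called, so no library could be left out either. The CpG-rich share stayed higher in shared regions than in either other class in each setting where it was computed. Other differences between classes were not computed again. With a −log10 q of at least 5 there were 8566 shared promoter regions, and with the 10000 strongest peaks of each list 4050, which follows from using fewer peaks. Both limits were applied before merging, so regions whose peak in the other list was removed counted there as one-list regions. In this order these 2 settings gave a protein-coding share of regions of 92.1% and 94.8%, of protein-coding genes bound of 40.8% and 21.1%, of long non-coding genes bound of 12.2% and 5.69%, a CpG-rich share of 65.9% and 70.2%, a CpG difference from GFP-negative-only regions of 34.7 and 19.6 and from GFP-positive-only regions of 43.9 and 7.36 percentage points, a divergent share of 18.5% and 21.5%, a median distance of 129 and 119 bp, and median fold enrichments of 11.2 and 16.2 in the GFP-negative and 7.74 and 10.4 in the GFP-positive list. The multi-copy share was 1.98% with the strongest peaks.

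In the other settings the numbers were as follows. With summits within 200 bp, 48.0% of coding and 16.8% of long non-coding genes were bound, 52.5% of regions were CpG-rich (differences 42.5 and 49.3 percentage points) and 14.3% divergent, with a median distance of 150 bp and fold enrichments of 8.67 and 5.97. With a window of 1 kb on each side the protein-coding share was 89.5%, coding genes bound 57.8%, CpG-rich 53.8%, multi-copy 1.82%, divergent 14.5%, distance 153 bp and fold enrichments 8.18 and 5.75. With summits in place of midpoints coding genes bound were 57.5%, CpG-rich 54.5% (differences 44.6 and 51.3) and distance 103 bp. Without the width limit coding genes bound were 57.9%. With copy number 1 the protein-coding share was 90.2%, genes bound 55.2% and 19.8%, CpG-rich 52.7% (differences 42.7 and 49.1), distance 156 bp and fold enrichment 8.08 in the GFP-negative list, and a multi-copy share is 0 by construction. With the basic annotation the protein-coding share was 85.1%, genes bound 53.3% and 20.1%, CpG-rich 56.8% (differences 44.0 and 52.7), divergent 12.99%, distance 180 bp and fold enrichments 8.43 and 5.92. With the nearest start site alone, chosen after seeing the data, the protein-coding share was 84.4% and genes bound 49.8% and 12.2%. Except for the settings by strength, the cause of these shifts was not tested.

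Of the 50 gene lists, 7 changed sides of the protein-coding level with the −log10 q limit and 9 with the strongest peaks. Among them were the other homeobox genes, T-box and Gata genes, ligands, solute carriers and ion channels. With the strongest peaks the germline list (11.9% against 21.1% of coding genes) also changed, as did the Snhg genes. The Snhg genes stood at 13.3%, against 5.69% of long non-coding genes. Some lists that stayed above fell close to the 21.1%, with 22.4% for proteasome subunits and for replication-dependent histones and 22.2% for ATP synthase subunits. Naive pluripotency genes stood at 26.3%. Other machinery lists stayed higher, up to 59.5% for DNA replication factors. Close summits changed 4 lists, summits in place of midpoints 3, no width limit 3, unique sequence 2, the nearest start site 2, and the basic annotation and the 1 kb window 1 each. Krueppel-like factors changed in 7 of the 9 settings, and replication-dependent histones fell below the coding level with unique sequence (44.8%) and the nearest start site (41.8%). Depth limits what an absent peak means: the number of reads kept is unknown, the GFP-positive list is the shorter, and a missing peak does not show that a gene was unbound.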

Other observations

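The share of protein-coding genes with a promoter region bound in both states ran from 46.6% on chromosome 14 to 65.6% on chromosome 12. Without olfactory and vomeronasal receptor genes, which lie in clusters, chromosome 7 went from 49.2% to 60.9% and chromosome 2 from 55.02% to 65.3%, while chromosome 14 stood at 48.7%.

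A few narrow regions had a high −log10 q at a moderate fold enrichment in both lists. At Gm23935, a predicted miRNA gene in the promoter of Zc3h7a, a region of 398 bp reached 229.7 in GFP-negative and 322.2 in GFP-positive cells by −log10 q, at fold enrichments of 7.57 and 9.03. At Gm24270, another predicted miRNA gene, a region of 379 bp had 143.6 and 155.8 at fold enrichments of 11.8 and 12.4. At Sspn, a region of 260 bp had 152.5 and 109.1 at 15.03 and 10.7. Their copy numbers were 3, 3.5 and 11.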
